A study of Mus musculus with 6 samples.

Results

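The polyamine genes described here were 10 of the 27179 genes in the count table, grouped by the step each serves. Odc1, Amd1, Srm and Sms make polyamines, Oaz1 and Oaz2 are antizymes, Azin1 and Azin2 are antizyme inhibitors, and Sat1 and Smox break polyamines down. They were chosen by function, but the group was proposed with the genotype and day values of these same libraries in view. Their differences by genotype and day are therefore given as a description, without p-values, and nothing is concluded from how many of them passed a threshold. Expression was high enough to be fitted for 9 of the 10 (Smox was left out by the filter), among 11005 genes fitted in all.

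RNA-seq of splenic germinal center (GC) B cells gave 6 libraries. For each of days 7, 10 and 14 after immunization with NP-KLH in alum there was 1 from wild-type (WT) and 1 from Il21r-/- animals. All animals had the C57BL/6 background, and the mutants carried a germline deletion of the IL-21 receptor gene, which is not limited to B cells. The sort took B220+IgG1+ cells that bound the hapten NP and lacked CD38, CD138, Gr1, IgD and IgM, meaning switched GC B cells. According to the study's methods, almost all of its experiments used irradiated Ly5.1 hosts rebuilt with WT or Il21r-/- bone marrow, so non-hematopoietic cells of such hosts would carry an intact receptor and some host blood cells could persist. The study also describes several mice per genotype and both sexes, and its legend for the RNA-seq sort names several mice of each genotype on day 7. By the labels, in contrast, a library is 1 independent mouse, and which of these holds is unclear. No genotype has a second library on the same day. The p-values given for other genes measure only the spread between these 6 libraries.

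The libraries held 21353438 to 27435124 counted reads, and the targeted gene was lower in the mutants. Il21r stood at 346, 263 and 247 CPM (counts scaled to a common, TMM-adjusted library size) in WT on days 7, 10 and 14 and at 106, 128 and 113 CPM in Il21r-/-. Xist, a marker of female cells, stood at 45.3, 106 and 82.4 CPM in WT and at 18.6, 259 and 26.1 CPM in Il21r-/-. The part of sex in the differences below, those of the X-linked Sms and Sat1 included, was not tested. All 10 GC B cell markers examined were above 1 CPM on average, including Bcl6, the transcription factor that defines GC B cells. Their summed level was 8036 to 9344 CPM in WT and 8266 to 10205 CPM in Il21r-/-. The T cell sum (86.7 to 122 CPM in WT, 82.1 to 118 CPM in Il21r-/-) was almost entirely Lck, and the other 7 genes of the list stayed under 1 CPM. Of the 8, only Trac did not overlap between genotypes, at 0.19 to 0.28 CPM in WT and 0.39 to 0.99 CPM in Il21r-/-, whereas Cd3e did not exceed 0.094 CPM in any library. Non-overlap with Il21r-/- higher was found for 10% of all 11005 fitted genes.

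Polyamines (putrescine, spermidine and spermine) are small positively charged molecules that bind nucleic acids and are needed by dividing cells. ODC, encoded by Odc1, makes putrescine from ornithine. Spermidine synthase (Srm) and spermine synthase (Sms) then extend it with aminopropyl groups from decarboxylated S-adenosylmethionine, the product of the Amd1 enzyme. Antizymes bind ODC monomers, send them to the proteasome and restrain polyamine uptake, and they are made only when a ribosome shifts its reading frame, which polyamines promote. Antizyme inhibitors resemble ODC, have no decarboxylase activity and bind antizyme more tightly than ODC does. Sat1 acetylates spermidine and spermine for export or oxidation, and Smox oxidizes spermine back to spermidine. GC B cells are among the fastest dividing cells in the body.

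The sequences below are shown because Azin2, the member with the largest genotype difference, encodes a relative of ODC that differs from it at both catalytic residues examined. They are coding stretches of GENCODE transcripts on GRCm38, 5′ to 3′ on the transcript strand. The capitals mark the codon aligned with residue 69 of ODC, the lysine that holds the pyridoxal phosphate cofactor.
Odc1: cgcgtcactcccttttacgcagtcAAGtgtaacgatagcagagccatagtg
Azin1: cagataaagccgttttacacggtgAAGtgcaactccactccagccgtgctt
Azin2: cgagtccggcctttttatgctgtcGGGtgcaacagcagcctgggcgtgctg

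Odc1 and Azin1 carried a lysine codon there, and Azin2 a glycine codon at its own residue 70. In the next stretches the capitals mark the codon aligned with residue 360 of ODC, its active-site cysteine.
Odc1: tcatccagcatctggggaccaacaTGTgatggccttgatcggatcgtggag
Azin2: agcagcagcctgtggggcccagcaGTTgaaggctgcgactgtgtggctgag

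Odc1 had a cysteine codon at this position and Azin2 a valine codon. Over the aligned residues the encoded proteins were 50.7% identical between Odc1 (461 residues) and Azin1 (448 residues). Odc1 and Azin2 (459 residues) were 48.7% identical. The inhibitors shared 44.8% with each other.

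The antizyme transcripts carry the site at which the ribosome skips a base to read past an early stop codon. In the next stretches the capitals mark the sense codon, the stop codon and the base after it, in transcripts that keep this segment.
Oaz1: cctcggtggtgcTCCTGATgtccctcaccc
Oaz2: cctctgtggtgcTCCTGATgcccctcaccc

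The stretches were found by a search for the marked letters, so their identity in both genes is given by the search. The Oaz2 stretch came from a transcript annotated as non-coding, and a further match in Oaz2 with other flanking bases is not shown. RNA counts measure the amount of these transcripts and not the rate of the frameshift, so they do not measure antizyme protein.

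Azin2 was the member with the largest genotype difference, and it was higher in Il21r-/- on every day. Its 6 values are shown with those of the other members in the plot of CPM by day. In WT it stood at 1.21 CPM on day 7, 0.89 CPM on day 10 and 0.80 CPM on day 14, from 33, 22 and 17 counted reads. In Il21r-/- it stood at 6.42, 4.57 and 4.86 CPM, from 147, 120 and 121 reads. The genotypes did not overlap, and the lowest mutant library was far above the highest WT library. The mean was 0.97 ± 0.22 CPM in WT and 5.28 ± 0.99 CPM in Il21r-/- (SD, n = 3 each). Log2 fold changes are given as WT over Il21r-/-, so that negative values mean higher expression in the mutants. Over 3 days the Azin2 log2 fold change was -2.45 (standard error 0.22), which is 5.45-fold higher in Il21r-/-. On single days it was -2.40 (SE 0.43) on day 7, -2.35 (SE 0.47) on day 10 and -2.60 (SE 0.50) on day 14. In bulk samples, a change in the number of cells that express a gene and a change in RNA per cell cannot be told apart.

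**Figure D1:**
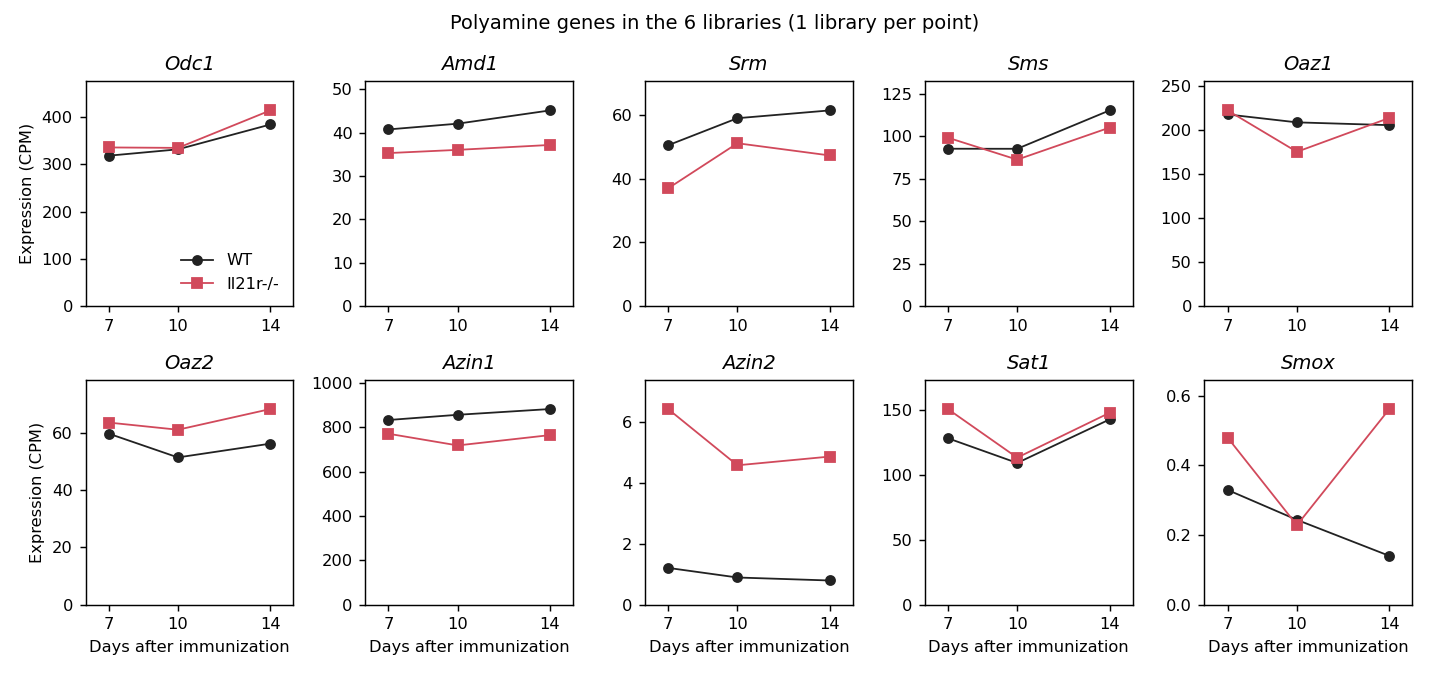
CPM (TMM-scaled, vertical axis from 0, a different range in each panel) of the 10 polyamine genes against days after immunization, with 1 library per point, black circles for WT and red squares for Il21r-/-. Azin2 sits at 0.80 to 1.21 CPM in WT and at 4.57 to 6.42 CPM in Il21r-/-, whereas the Odc1 lines lie close together.

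Azin2 (Entrez 242669) spans chr4:128930233-128962456 of GRCm38. None of the 100-base windows of its longest coding transcript, as long as the sequenced reads, occurred in a transcript of another gene. A lncRNA gene, Gm15904, lies within it and was not counted separately in the table, so that reads of the lncRNA that fall on Azin2 exons would be part of the Azin2 count if strand was ignored. Within 250 kb on either side of Azin2, 9 further genes were fitted. Of these, 1 passed the threshold over 3 days, A3galt2, whose log2 fold change of 2.10 (SE 0.35) had the opposite sign (adjusted p = 0.0097, edgeR's quasi-likelihood test). It lay 160935 bases away and rested on 225 reads in the 6 libraries together. Trim62, 18907 bases away, had a log2 fold change of -0.24 (SE 0.27).

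Other measures differed between the genotypes in the same libraries as Azin2. The summed level of 7 markers of B cells outside the GC, such as Fcer2a and Ccr7, was 304 to 730 CPM in WT and 717 to 1152 CPM in Il21r-/-, and 4 of the 7 genes did not overlap between genotypes. The summed level of 6 plasma cell markers was 2524 to 2739 CPM in WT and 2774 to 3621 CPM in Il21r-/-, mostly from Jchain. In the same list 3 genes did not overlap between genotypes. Prdm1 was lower in the mutants (1.39 to 1.83 CPM in WT, 0.26 to 0.68 CPM in Il21r-/-). Sdc1 was lower as well (0.73 to 0.85 CPM in WT, 0.36 to 0.50 CPM in Il21r-/-). Xbp1 was higher in the mutants (198 to 235 CPM in WT, 268 to 305 CPM in Il21r-/-). The myeloid sum was 8.42 to 14.2 CPM in WT and 12.2 to 19.9 CPM in Il21r-/-, and 1 of its 8 genes did not overlap. That gene was Cd68, at 5.94 to 7.69 CPM in WT and 9.39 to 11.1 CPM in Il21r-/-. Adgre1 overlapped but was higher in the mutants on each day. Itgam overlapped but was higher in WT on each day, at 0.84 to 1.22 CPM in WT and 0.08 to 1.05 CPM in Il21r-/-. S100a8 and S100a9, under 1 CPM in every library, had lower means in the mutants, and Lyz2 and Csf1r had higher means. Ly6g had 0 reads in 5 of 6 libraries. The erythroid sum was 10.0 to 19.0 CPM in WT and 4.80 to 33.6 CPM in Il21r-/-, with 6 of 7 markers found. Only Alas2 of this list did not overlap, at 0.40 to 0.53 CPM in WT and 0.61 to 0.76 CPM in Il21r-/-. The part of these markers in the Azin2 difference was not tested.

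Azin1, the far more abundant antizyme inhibitor, had values in the opposite order. It stood at 833, 857 and 883 CPM in WT on days 7, 10 and 14. In Il21r-/- it stood at 771, 719 and 765 CPM. The genotypes did not overlap, but the distance was small, and the log2 fold change over 3 days was 0.19 (SE 0.10). The day-wise values were 0.11 on day 7, 0.25 on day 10 and 0.21 on day 14 (SE 0.19 each). Azin1 spans chr15:38487430-38519294.

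The antizymes had small fold changes. Oaz1, the main ubiquitous antizyme, stood at 218, 209 and 205 CPM in WT and at 222, 175 and 214 CPM in Il21r-/- on days 7, 10 and 14. The mutant day 10 library was the lowest of the 6, and the others lay close together. The log2 fold change of Oaz1 over 3 days was 0.05 (SE 0.11), with an approximate 95% interval (normal approximation) from -0.17 to 0.27. Oaz2, the second antizyme, stood at 59.7, 51.3 and 56.1 CPM in WT and at 63.5, 61.0 and 68.2 CPM in Il21r-/-. All 3 mutant values of Oaz2 lay above all 3 WT values, and its log2 fold change over 3 days was -0.20 (SE 0.11). Of the Oaz1 windows of 100 bases, 41.8% also occurred in the pseudogene transcript Oaz1-ps, so reads of this gene may have been split or dropped in counting.

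Odc1, the first enzyme of the pathway, was at nearly the same level in both genotypes. In WT it stood at 318, 332 and 384 CPM on days 7, 10 and 14. In Il21r-/- it stood at 336, 335 and 414 CPM. Both genotypes had their highest value on day 14, and the ranges overlapped. The log2 fold change over 3 days was -0.07 (SE 0.09), with an approximate 95% interval from -0.25 to 0.12. This interval bounds the difference and does not show that the genotypes are equal. Odc1 spans chr12:17544808-17551502, and 19.6% of its windows were shared with transcripts of 9 other genes.

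Srm and Amd1 were higher in WT on each day. Srm stood at 50.5, 59.0 and 61.4 CPM in WT and at 37.0, 51.1 and 47.3 CPM in Il21r-/-. The highest mutant value of Srm, on day 10, exceeded the lowest WT value, on day 7, so the ranges overlapped. Its log2 fold change over 3 days was 0.34 (SE 0.12). With day as a block, pairing the libraries of a day, the Srm difference was 0.34 (SE 0.09) and passed the threshold, as did 22.9% of all 11005 genes in that fit. Without the Il21r-/- day 10 library it was 0.44 and passed as well, along with 19.1% of all genes in that fit. Srm was proposed with these values in view, so neither pass is separate evidence for its difference. Srm had no window shared with another gene.

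Amd1 stood at 40.7, 42.0 and 45.1 CPM in WT and at 35.3, 36.0 and 37.1 CPM in Il21r-/-. The genotypes did not overlap, and the log2 fold change over 3 days was 0.24 (SE 0.10). The count of Amd1 is uncertain, because 73.2% of its windows also occurred in Amd2, a near-identical copy. Amd2 stood at 41.4, 44.4 and 49.6 CPM in WT and at 38.8, 39.8 and 44.2 CPM in Il21r-/-, overlapping between genotypes, and its log2 fold change was 0.14 (SE 0.10, adjusted p = 0.448, edgeR's quasi-likelihood test).

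Sms, on the X chromosome (chrX:157443851-157492287), stood at 92.6, 92.5 and 115 CPM in WT and at 99.1, 86.1 and 105 CPM in Il21r-/-. It overlapped between genotypes, with WT the lower on day 7 and the higher on days 10 and 14. Its log2 fold change over 3 days was 0.04 (SE 0.11). Of its windows, 27.7% were shared with the pseudogene Sms-ps.

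The breakdown genes overlapped between genotypes. Sat1, also on the X chromosome (chrX:155213126-155216449), stood at 128, 109 and 142 CPM in WT and at 150, 113 and 148 CPM in Il21r-/-. Both genotypes had their lowest Sat1 value on day 10, and the log2 fold change over 3 days was -0.12 (SE 0.14). Smox was close to the limit of counting, with 9, 6 and 3 reads in WT and 11, 6 and 14 reads in Il21r-/-, and no fold is given.

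**Figure D2:**
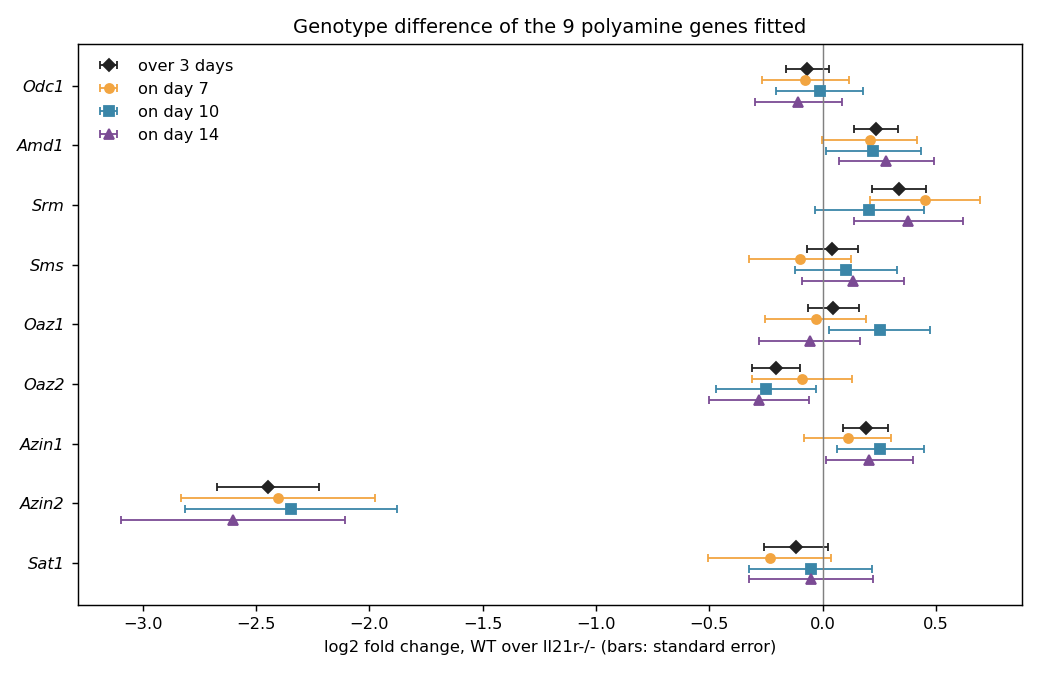
Log2 fold change of WT over Il21r-/- (horizontal axis, negative when higher in the mutants) for the 9 fitted polyamine genes, over 3 days (black diamonds) and on days 7, 10 and 14 (coloured symbols), with bars for the standard error. Azin2 lies between -2.60 and -2.35 in all 4 estimates and every other gene lies within 0.45 of 0.

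For scale, 5.92% of all 11005 genes had a Benjamini-Hochberg adjusted p under 0.05 over 3 days by edgeR's quasi-likelihood test, and 1 of the 9 fitted members, Azin2, was among them. The members were proposed from these same values, so this count restates the choice and is no separate evidence. On single days, by edgeR's likelihood ratio test, Azin2 was again the 1 member past that threshold. The filter was an average log2 CPM of 0, which is 1 CPM. The WT mean of Azin2, 0.97 CPM, lay just under 1 CPM, with 0.89 and 0.80 CPM on days 10 and 14. Its Il21r-/- mean of 5.28 CPM lay well above that level. Its place among the fitted genes thus leaned on the mutant libraries, where it was high. The share of all genes that passed was 1.07% on day 7, 3.1% on day 10 and 3.28% on day 14. These comparisons share their libraries, so the day-wise values do not add independent support to the value over 3 days. Amd1 and Azin1 were the 2 members whose WT values all exceeded the mutant ones, as for 8.33% of all genes. Oaz2 and Azin2 were the 2 with the opposite order, as for 10% of all genes. The median log2 fold change over 3 days was 0.04 for the 9 members and -0.01 for all genes.

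No member passed the threshold for a change with time after immunization. Odc1 on day 14 was 1.21 times its day 7 level in WT and 1.23 times in Il21r-/-, and its linear day effect was 0.30 (SE 0.11) on the log2 scale per 7 days. For Srm the ratios were 1.22 and 1.28, with a day effect of 0.30 (SE 0.15). Both genes therefore had higher values late in both genotypes. Azin2 had lower values late, at 0.66 times the day 7 level in WT and 0.76 times in Il21r-/-, with a day effect of -0.45 (SE 0.26). Azin1, Oaz1 and Oaz2 had day effects of 0.04, -0.05 and 0.02 per 7 days (SE 0.12, 0.14 and 0.13). Of the 9 members, 0 passed the threshold for the linear day effect by edgeR's quasi-likelihood test and 0 by DESeq2, 1 had an unadjusted p under 0.05, and 4.43% of all genes passed in edgeR.

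The day trend was also compared between genotypes. The difference in trend was -0.23 (SE 0.60) for Azin2 per 7 days, -0.04 (SE 0.27) for Odc1 and 0.22 (SE 0.30) for Sms. The errors were larger than these differences. In this comparison 0% of all 11005 genes passed by edgeR's quasi-likelihood test and 0 by DESeq2, and 118 genes but none of the 9 members had an unadjusted p under 0.05.

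Levels of different genes were compared per length, as CPM per kilobase of gene (RPKM), and averaged over the 6 libraries. Oaz1 was the highest at 193 ± 15.6 RPKM (SD, n = 6), followed by Azin1 at 160 ± 12.5, Odc1 at 139 ± 14.7 and Sat1 at 118 ± 16.0 RPKM. Neighbours in this order overlapped in their ranges, although Oaz1 was above Azin1 in 6 of 6 libraries and Azin1 above Odc1 in 5 of 6. A lower group held Srm at 38.4 ± 6.60, Oaz2 at 32.5 ± 3.17 and Sms at 29.1 ± 3.08 RPKM, again with overlapping ranges. Amd1 at 12.3 ± 1.21, Azin2 at 1.63 ± 1.28 and Smox at 0.15 ± 0.07 RPKM followed without overlap. The shared windows given for Oaz1, Odc1, Sms and Amd1 limit how exactly their place in this order is known.

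**Figure D3:**
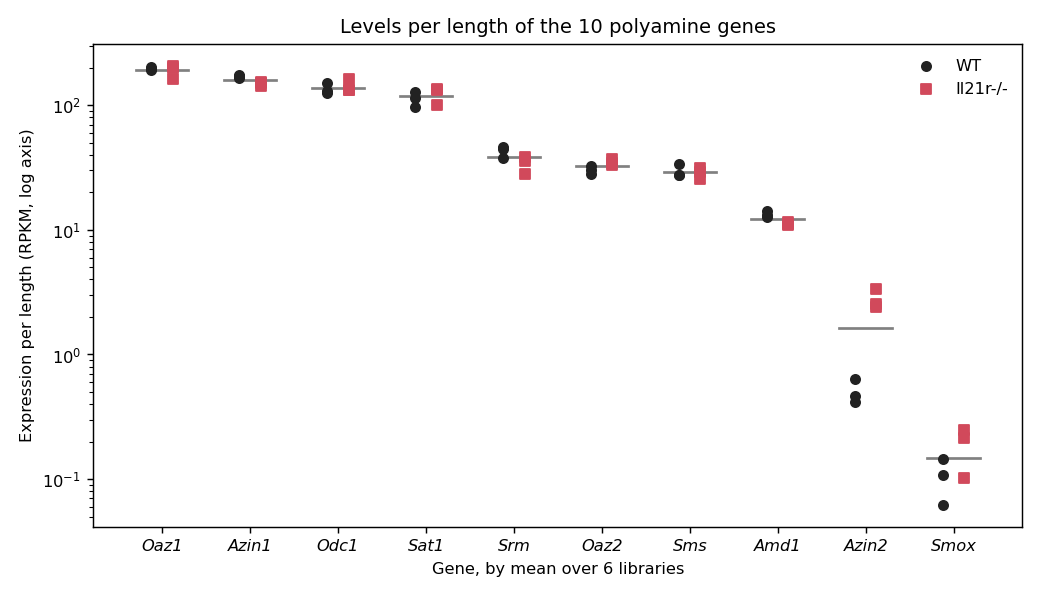
RPKM on a log axis for the 10 polyamine genes, ordered by their mean (grey bars), with 1 point per library, black circles for WT and red squares for Il21r-/-. Oaz1, Azin1, Odc1 and Sat1 form the upper group near 100 RPKM and above, and Azin2 is the gene whose genotypes stand furthest apart.

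Within a library, the antizyme and its inhibitor can be set against ODC. The ratio of Oaz1 to Odc1 in RPKM was 1.62, 1.49 and 1.27 in WT and 1.57, 1.24 and 1.22 in Il21r-/- on days 7, 10 and 14, highest on day 7 in both genotypes. The ratio of Azin1 to Odc1 was 1.33, 1.31 and 1.16 in WT and 1.16, 1.09 and 0.94 in Il21r-/-. It was higher in WT on each day, although the WT day 14 and mutant day 7 values were almost equal. These are ratios of transcripts, and both carry the length and mapping limits of the single genes.

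Pairs of members were compared over the 6 libraries by Pearson's r of their log2 CPM, as a description with no test, since the libraries share genotype and day. Of the 36 pairs, 3 had r above 0.8, namely Amd1 with Azin1 (0.93), Amd1 with Srm (0.84) and Oaz2 with Azin2 (0.82). Another 3 were below -0.8, Azin2 with Amd1 (-0.97), with Azin1 (-0.91) and with Srm (-0.83). After the genotype means were subtracted, the first 3 pairs were at 0.53, 0.65 and 0.37. The pairs of Azin2 with Amd1, Azin1 and Srm were then at -0.80, -0.05 and -0.96. The value for Azin2 with Azin1 was thus close to 0 within genotypes, and that for Azin2 with Srm was not. Day was not subtracted, and per 7 days Srm had a day effect of 0.30 and Azin2 of -0.45. The part of day in these values was not tested. Other pairs were of like size within genotypes, among them Odc1 with Amd1 (0.88) and Sms with Azin1 (0.87).

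Myc, a transcription factor known to drive Odc1 in other settings, was at 28.0, 31.2 and 32.6 CPM in WT and at 24.7, 39.6 and 31.1 CPM in Il21r-/-, and its r with Odc1 over the 6 libraries was 0.16. The E-box CACGTG, the core site of Myc and related factors and the same on both strands, was looked for in the 300 bases around the start of each gene (RefSeq, GRCm38.p6). It was present in 1 of 8 windows of the 7 members in the promoter table (Odc1, Amd1, Sms, Oaz1, Oaz2, Sat1 and Smox), a window of Sms at chrX:157492238-157492537 on the minus strand. Among all 32851 windows of this length, 7.2% held it. The match is a description of the letters only.

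The genes whose pattern over the 6 libraries was most like that of Odc1, among 5300 genes with a mean of at least 5 on the log2 CPM scale, were Mtx2 (r = 0.991), Tceal9 (0.990), Rpl14 (0.983), Pmpcb (0.979) and Mrpl23 (0.977). For Sat1 they were Bfar (r = 0.992), Stap1 (0.991), 4933434E20Rik (0.991), Spcs2 (0.989) and Mitd1 (0.988). With 6 points, high values are common, and 217 genes had r above 0.9 with Odc1 and 152 with Sat1.

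The genes around the core pathway were described from a list of 34, of which 23 were fitted. The genotype difference over 3 days passed the threshold for 1 of them, where 5.92% of all genes did, and 14 of the 23 had a positive log2 fold change. Slc12a8, a solute carrier linked to polyamine transport, was the gene that passed. It stood at 1.36, 1.30 and 1.08 CPM in WT and at 1.92, 2.82 and 3.45 CPM in Il21r-/- on days 7, 10 and 14, from 23 to 86 reads per library. The genotypes did not overlap, and the distance was widest on day 14. Its log2 fold change over 3 days was -1.10 (SE 0.27, adjusted p = 0.0482, edgeR's quasi-likelihood test), and adjusted p rose to between 0.0599 and 0.312 in 5 of 12 alternatives. On day 14 it was -1.68 (SE 0.51, adjusted p = 0.0302, edgeR's likelihood ratio test). On days 7 and 10 none of the 23 passed, and 0 and 2 had an unadjusted p under 0.05.

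The other largest differences of the list did not pass the threshold over 3 days. Dohh, which completes the hypusine modification of eIF5A from a spermidine donor, had a log2 fold change of 0.28 (SE 0.11, adjusted p = 0.196, edgeR's quasi-likelihood test). Eif5a2, the less abundant eIF5A gene, had 0.26 (SE 0.11, adjusted p = 0.222, edgeR). Adi1, of the methionine salvage pathway that recycles the by-product of spermidine and spermine synthesis, had -0.27 (SE 0.10, adjusted p = 0.181, edgeR). With day as a block, where 22.9% of all genes passed, 6 of the 23 did, namely Oat, Atp13a2, Dohh and Eif5a2, all higher in WT, and Adi1 and Slc12a8, higher in Il21r-/-.

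For the linear day effect, 3 of the 23 passed the threshold by edgeR's quasi-likelihood test, where 4.43% of all genes passed. Ass1, which makes the precursor of arginine, fell by 0.997 on the log2 scale per 7 days (SE 0.20, adjusted p = 0.0296, edgeR). In CPM, Ass1 went from 13.7 to 8.19 CPM in WT and from 13.8 to 5.66 CPM in Il21r-/- between days 7 and 14. Mtap, the first enzyme of methionine salvage, fell by 0.65 (SE 0.15, adjusted p = 0.0437, edgeR), from 30.3 to 19.3 CPM in WT and from 33.3 to 20.9 CPM in Il21r-/-. Eif5a2 rose by 0.66 (SE 0.14, adjusted p = 0.0362, edgeR), from 39.9 to 74.0 CPM in WT and from 39.6 to 53.8 CPM in Il21r-/-. All 3 moved in the same direction in both genotypes. These calls depended on single libraries. None of the 3 passed without any 1 of the libraries of day 7 or day 14, with adjusted p (edgeR) between 0.068 and 0.428, although each kept its direction. Without the WT day 7 library 0 of 11019 genes passed for the linear day effect by edgeR (1274 at an unadjusted p under 0.05), and without the WT day 14 library 5 of 11007 did.

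**Figure D4:**
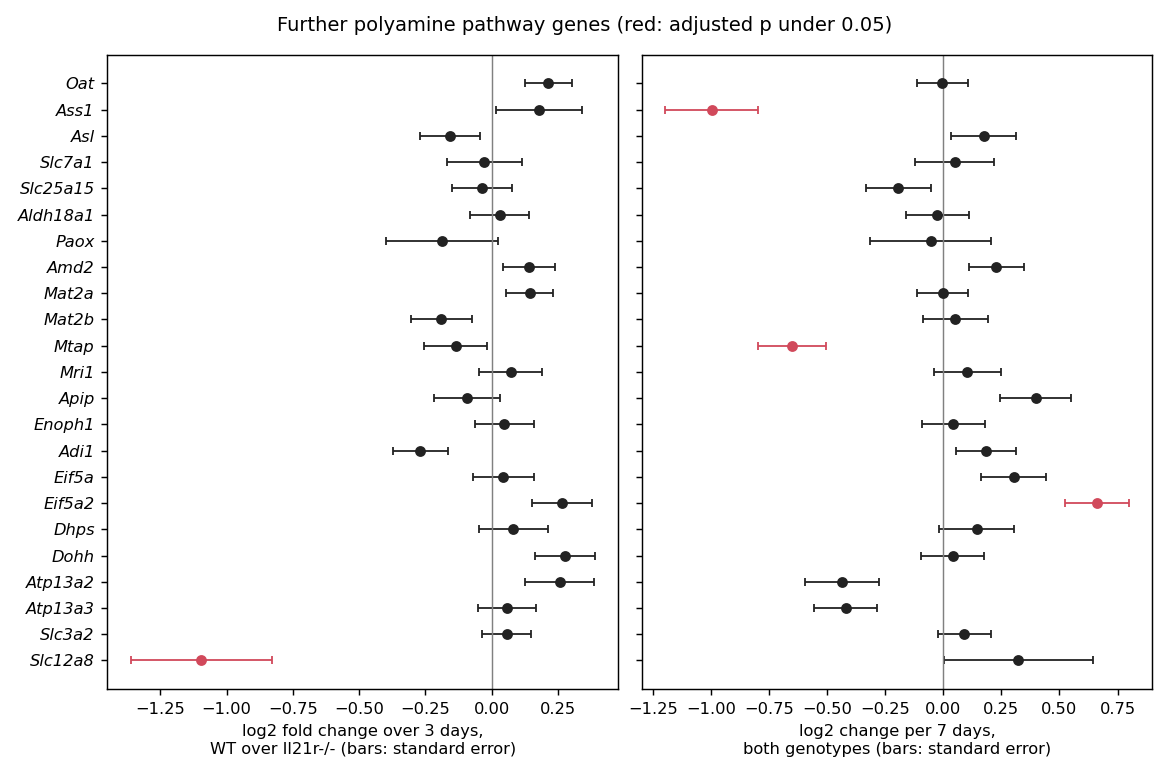
Log2 fold change of WT over Il21r-/- over 3 days (left) and log2 change per 7 days in both genotypes together (right) for the 23 fitted pathway genes outside the core group, with bars for the standard error and red where the adjusted p was under 0.05. Slc12a8 is red on the left at -1.10, and Ass1, Mtap and Eif5a2 are red on the right at -0.997, -0.65 and 0.66.

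Among the genes of arginine and ornithine supply, Oat, whose enzyme forms or uses ornithine, stood at 271 to 278 CPM in WT and 227 to 241 CPM in Il21r-/-. The arginine transporter gene Slc7a1 stood at 95.6 to 139 CPM and Aldh18a1, which acts upstream of ornithine, at 77.8 to 93.4 CPM over the 6 libraries. The arginases were nearly silent, with 0 or 1 read of Arg1 and 1 to 5 reads of Arg2 per library. Eif5a, the target of hypusination, was the most abundant gene of the list at 1447 to 1913 CPM. The lysosomal and endosomal polyamine transporters, Atp13a2 and Atp13a3, had day effects of -0.43 (SE 0.16) and -0.42 (SE 0.13) per 7 days that did not pass the threshold (adjusted p = 0.162 and 0.115, edgeR).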

How the data were processed

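RNA was profiled in 6 libraries sorted from mouse spleen, 1 per genotype and day. The authors deposited raw read counts per gene, made with featureCounts on its built-in RefSeq genes from 100-base single-end reads that Rsubread had placed on mm10, with technical replicates pooled. The submitters' processing notes also name CASAVA 1.8.2. Strand and multi-mapping settings of the counting are not given in the sources used here. Samples were grouped by their labels. The table and the single files of all 6 libraries were identical, and 25275 of 27179 Entrez identifiers had a RefSeq symbol (GRCm38.p6).

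With R 4.3.3 and edgeR 4.0.16, Ig variable genes, Xist, genes of the Y chromosome and those with an average log2 CPM under 0 were removed, and TMM factors ran from 0.958 to 1.04. Dispersions came from all 6 libraries with genotype and linear day as terms (3 residual degrees of freedom, common biological coefficient of variation 13.1%). The genotype effect over 3 days, the linear day effect and the difference in trend were fitted by quasi-likelihood, and the genotype effect per day, which sets 1 library against 1, by a likelihood ratio test. P-values were adjusted over all 11005 genes by the Benjamini-Hochberg method, with a threshold of 0.05. Standard errors came from the information matrix of the fit, and errors of counts cover counting and library spread only. CPM used TMM-scaled library sizes, and RPKM the deposited gene lengths. The fitting was tested on simulated counts.

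Libraries of the 2 genotypes are paired by day, since both of a day were taken at the same time after immunization. Their deviations from the genotype means correlated across genes with r = 0.64, 0.413 and 0.645. Alternatives were DESeq2 size factors, DESeq2 1.42.0, no filter, at least 10 counts in every library, the left-out genes kept, day as a block, and leaving out each library. For the day effect of pathway genes they were added after the data had been seen.

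Members and gene lists were chosen with earlier results of these data known, and the lists were written from general knowledge. The genes named singly were all 10 members, the pathway genes that passed a threshold or had the 2 largest differences in each direction, Il21r, Myc, and the 5 genes most like Odc1 and Sat1. Other genes, among them Oat, Slc7a1, Aldh18a1, the arginases, Eif5a, the Atp13a genes, Amd2, single marker genes and the neighbours of Azin2, were named after their values were seen. Transcripts of GENCODE M21 gave the coding stretches, the windows of 100 bases and, after translation of the longest reading frame and alignment (Biopython), the identities. Some items are not reported here.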

Additional observations from a re-analysis of the deposited data

How the results depend on the processing

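Azin2 kept its direction and its call over 3 days in all 12 alternatives (-2.55 to -2.31) and on each day in all 10 (-2.40 to -2.29 on day 7, -2.56 to -2.32 on day 10 and -2.61 to -2.51 on day 14). These refits reuse the libraries that were in view when the members were proposed. They describe the dependence on processing only and are no separate evidence for the Azin2 difference or for that of Srm. The count of members past the threshold over 3 days was 1, and it was 2 with day as a replicate block, where Srm joined Azin2 and 2519 genes passed in all. Leaving out each library gave 1 to 2 members, the 2 without the Il21r-/- day 10 library, where Srm was 0.44 and 2093 of 10968 genes passed in all. The block changed no other call among the members. Among the further pathway genes the count of 1 became 0 with the left-out genes kept and 6 with the block. Leaving out each library gave 0 to 2, with 0 without any 1 of the WT libraries or without the Il21r-/- day 14 library, and 2 without the Il21r-/- day 10 library. The cause of these changes was not tested. Signs changed on leaving out a library for values near 0, namely the trend difference per day of Azin2 (-0.114 to 0.0867, and 0.0201 without the WT day 7 library), and the fold changes over 3 days of Sat1 (-0.240 to 0.0494), Sms (-0.0387 to 0.169, and -0.0333 without the Il21r-/- day 10 library) and Oaz1 (-0.0559 to 0.146). For the linear day effect the count of 3 pathway genes was 0 to 6 on leaving out each library, 0 without any 1 library of day 7 or 14, 1 without WT day 10 (Ass1) and 6 without Il21r-/- day 10, and it stayed 3 in the 5 other alternatives. Of 205 fold changes recomputed, 178 kept direction and call, and of 87 counts, 72 stayed within 1.5 times. Depth limits Azin2 in WT (17 to 33 reads) and Smox (3 to 14 reads).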
